A study of Drosophila melanogaster with 2 samples.

Results

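CG8388 occupancy was examined at one-directional promoters, meaning promoters where every start site of a protein-coding gene near the peak faces the same way. Of the 6075 peaks in the authors' thresholded list, 1462 had their summit within 500 bp of at least 1 protein-coding start of transcription (TSS) and had all such TSSs on the same strand. Another 787 peaks had TSSs on both strands within that distance (mixed-strand promoters) and 3826 had none. The material was whole Drosophila melanogaster embryos of 0 to 14 h, of both sexes, from a transgenic line that stably carries CG8388 with GFP at its C-terminus, and chromatin was precipitated through the GFP. The single group comprised 2 libraries, biological replicates 2 and 3, with no second condition. The tagged protein came from a transgene and the embryos were not sorted, so a peak may come from any embryonic cell type or stage within that span. Each replicate list and the pooled list held 30000 peaks, and the thresholded peaks were the 6075 strongest of the pooled list. Peak lists give no read totals. The depth is therefore unknown, and intervals reflect counting error alone.

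A promoter is the stretch of DNA around a TSS where RNA polymerase II assembles. In the compact fly genome many genes lie head to head and share the stretch between their TSSs, so a peak there cannot be assigned to either gene. At one-directional promoters the position of a summit up- or downstream of the gene has a defined sign. Sequence-specific proteins at fly promoters include Dref, which binds the DNA replication-related element (DRE), M1BP, which binds core promoter motif 1, and the GAGA factor.

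These 8 strong members show the kinds of sequence under the summits. They are leading members whose summit lay outside exons, with mrt chosen to include a summit downstream of its TSS. Each run reaches up to 100 bases on either side of the summit, cut where an annotated exon begins, and reads in the direction of the gene from the RefSeq copy of Release 6 (dm6). The windows are chrX:5755364-5755491 (plus strand) for CG15771, chrX:15323309-15323509 (plus) for Top1, chrX:10823067-10823267 (minus) for Imp and chr3L:11819998-11820198 (minus) for CG5946. Those of the others are chr3L:19590525-19590724 (minus) for CG14100, chrX:2703853-2703989 (minus) for Ugalt, chr3R:12449070-12449270 (plus) for CG18549 and chr3R:27282415-27282615 (minus) for mrt. The summit is base 101 in each. Capitals mark CACTGT or its reverse complement ACAGTG, a word that is taken up further on.
CG15771: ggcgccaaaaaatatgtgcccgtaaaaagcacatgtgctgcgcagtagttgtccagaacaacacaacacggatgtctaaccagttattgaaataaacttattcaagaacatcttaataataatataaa
Top1: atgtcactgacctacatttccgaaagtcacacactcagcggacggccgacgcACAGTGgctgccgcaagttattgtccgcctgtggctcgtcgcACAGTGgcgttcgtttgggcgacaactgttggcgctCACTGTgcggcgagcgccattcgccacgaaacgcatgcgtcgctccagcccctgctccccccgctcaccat
Imp: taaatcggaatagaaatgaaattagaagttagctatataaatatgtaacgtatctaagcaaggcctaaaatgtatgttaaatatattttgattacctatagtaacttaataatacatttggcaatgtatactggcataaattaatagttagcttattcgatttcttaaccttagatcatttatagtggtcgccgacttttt
CG5946: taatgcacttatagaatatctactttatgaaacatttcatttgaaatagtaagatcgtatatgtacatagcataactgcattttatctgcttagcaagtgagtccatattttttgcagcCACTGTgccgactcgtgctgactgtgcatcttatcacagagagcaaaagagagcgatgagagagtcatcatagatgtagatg
CG14100: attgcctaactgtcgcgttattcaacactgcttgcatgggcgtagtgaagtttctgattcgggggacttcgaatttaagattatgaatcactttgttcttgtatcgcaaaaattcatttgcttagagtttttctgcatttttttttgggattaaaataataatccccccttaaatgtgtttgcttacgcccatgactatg
Ugalt: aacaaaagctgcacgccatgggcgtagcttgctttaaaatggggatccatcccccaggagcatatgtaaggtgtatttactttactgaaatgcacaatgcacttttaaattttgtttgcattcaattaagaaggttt
CG18549: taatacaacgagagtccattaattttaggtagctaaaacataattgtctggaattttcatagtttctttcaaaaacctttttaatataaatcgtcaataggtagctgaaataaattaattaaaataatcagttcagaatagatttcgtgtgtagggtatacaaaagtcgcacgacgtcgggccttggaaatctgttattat
mrt: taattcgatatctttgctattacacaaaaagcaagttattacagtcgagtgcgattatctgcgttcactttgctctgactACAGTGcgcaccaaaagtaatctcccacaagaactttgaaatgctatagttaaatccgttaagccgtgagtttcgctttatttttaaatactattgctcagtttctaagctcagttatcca
The windows differed widely in base composition. That of Top1 had a GC content of 62.2% and held the word 3 times, whereas that of Imp had 26.9% and that of CG18549 30.3%, both without the word. CG5946 and mrt held it once each, at GC contents of 36.8% and 36.3%.

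Some members were among the strongest peaks of the list. Of the 20 highest peaks by the authors' signal, 10 were members, 4 were at mixed-strand promoters and 6 were away from promoters. Members made up 46 of the first 100 and 76 of the first 200 peaks, and 1462 of all 6075. Their median rank was 2771.5, compared with 2639 for mixed-strand peaks and 3221.5 for peaks away from promoters. The strongest peak of all spanned X from 5754786 to 5756346 at CG15771 (FBgn0029801), with a signal of 27855 and its summit 110 bp upstream of the TSS. It ranked 1 in replicate 2 and 1 in replicate 3. The next protein-coding gene upstream ran in the opposite direction, 616 bp from the TSS of CG15771. The peak may therefore not belong to CG15771 alone. Top1, the gene of DNA topoisomerase I, followed at rank 4 with a signal of 8391 and ranked 5 and 3 in replicates 2 and 3. Its summit lay at -182 bp in the thresholded list, -182 bp in replicate 2 and -183 bp in replicate 3. Imp, which encodes an RNA-binding protein, held rank 5 with a signal of 8035, and ranked 3 and 6 in replicates 2 and 3. Its summit at -381 bp lay in an intron of transcripts that start farther upstream.

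The leading 20 members held ranks 1 to 43 of the thresholded list, and their signals ran from 27855 down to 2245. After Imp came clu, required for the placing of mitochondria in the cell, at rank 7, CG5946 at rank 9 and CG11791 at rank 11. They were followed by px, a wing vein patterning gene, at rank 12, CG14100 at rank 17, Ugalt, a UDP-galactose transporter, at rank 18 and CG18549 at rank 20. The rest of the 20 were Fkbp14 (an endoplasmic reticulum prolyl isomerase), ph-p (a Polycomb group subunit), mRpL41 (a mitochondrial ribosomal protein), PNPase (polynucleotide phosphorylase), mrt, Hr78 (a nuclear receptor), CG1635, Tina-1, e(y)2b and SamDC (S-adenosylmethionine decarboxylase). None of these 20 ranked below 66 in replicate 2 or below 79 in replicate 3, but the thresholded list was made from the same libraries, so their ranks there are no separate evidence. CG18549 ranked 49 and 11 in replicates 2 and 3, and SamDC ranked 29 and 79.

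By arm, 288 members were on 2L, 281 on 2R, 287 on 3L, 330 on 3R, 270 on X and 6 on chromosome 4. The strongest were SamDC on 2L, clu on 2R (signal 5631), CG5946 on 3L (4239), CG11791 on 3R (3524), CG15771 on X and, on chromosome 4, ci, the transcription factor of Hedgehog signalling, at rank 640 with a signal of 647. The 3 weakest members were at CG7878, at Hipk (a protein kinase gene) and at CG6424, with signals of 134.7, 134.7 and 134.4. The nearest one-directional promoter peaks outside the threshold were at sgg (a kinase of Wnt signalling), mthl15 and zip (non-muscle myosin heavy chain), with signals of 134.0.

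Over all members the strongest quintile of the thresholded list (the leading 1215 peaks) held 392, or 26.8% (Wilson 95% interval 24.6 to 29.1). For peaks away from promoters this share was 16.5% (15.4 to 17.7; 632 of 3826), lower than for members, with an odds ratio of 1.85 (1.60 to 2.14; two-sided Fisher's exact test, adjusted p = 2.61e-16). For mixed-strand promoters it was 24.3% (21.4 to 27.4; 191 of 787), and the odds ratio of members against these was 1.14 (0.935 to 1.39; exact test, adjusted p = 0.207), so a difference was not shown. The odds ratio against mixed-strand promoters fell below 1, to 0.819, with a promoter window of 250 bp and to 0.991 with replicate 3 alone, neither past the threshold, and rose to 1.40 (exact test, adjusted p = 0.0194) among the strongest 3037 peaks. These tests count peaks, and neighbouring peaks are not independent.

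Both replicates listed nearly all members. A peak of replicate 2 overlapped 1433 members and a peak of replicate 3 overlapped 1445, while 1417 (96.9%) were listed in both and 1 in neither. Within the first 6075 peaks of both replicates stood 1081 members, or 73.9% (71.6 to 76.1), close to the 75.5% (72.4 to 78.4) of mixed-strand peaks and the 73.6% (72.2 to 74.9) of peaks away from promoters. Median ranks were 2577 in replicate 2 and 2609 in replicate 3, and Spearman's rank correlation between them was 0.74 over 1417 members, as a description of libraries from the same transgenic line. The 2 replicates placed the summit a median of 26 bp apart (quartiles 11 and 54 bp), and 1328 of 1417 summit pairs lay on the same side of the TSS. The strongest member that only 1 replicate listed was at scny, a deubiquitinase gene, at rank 1661 with rank 1623 in replicate 3.

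**Figure D1:**
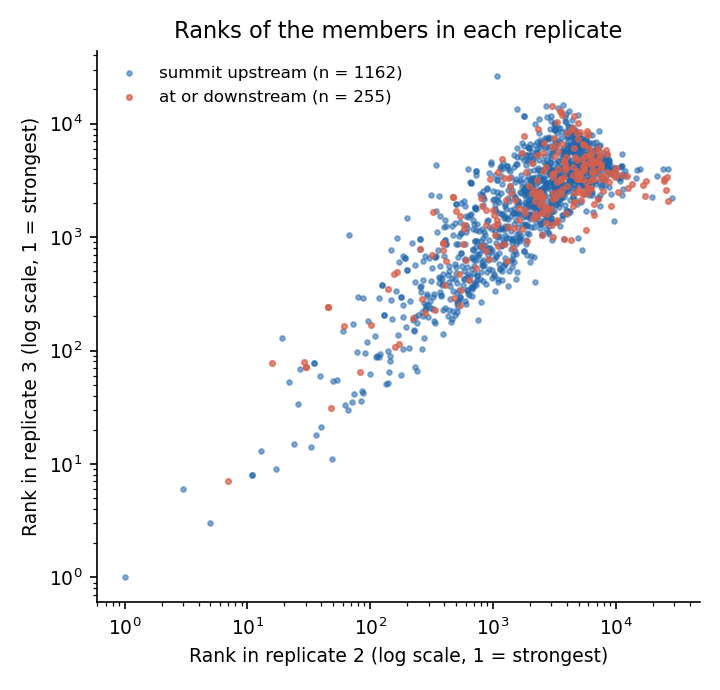
Rank of each member in the list of replicate 2 (x axis, log scale) and of replicate 3 (y axis, log scale) for the 1417 members listed in both, where rank 1 is the strongest peak and colour gives the side of the TSS. The points follow the diagonal from CG15771 at rank 1 in both lists, and none of the 20 leading members ranks below 79 in either list.

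Summits lay mostly upstream. Of the 1462 members, 1200 had the summit upstream of the nearest TSS (82.1%, 80.0 to 84.0), 261 downstream and 1 at the TSS. The median position was -157 bp, with quartiles at -277 and -45 bp. Only 355 members (24.3%) had their summit within 100 bp of the TSS, and 638 (43.6%) had it between 300 and 101 bp upstream. The arms gave like values, with upstream shares between 79.7% and 85.5%. Members with a single TSS in the window (1208) were upstream in 85.0% of cases at a median of -176 bp, and those with several (254) in 68.1% at -54 bp, where the choice of the nearest TSS shortens the distance.

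The position differed from that of weaker peaks at one-directional promoters. Of the 4549 lower-ranked pooled peaks there, 60.4% (59.0 to 61.8) were upstream, at a median of -45 bp (quartiles -201 and 85 bp). The odds ratio for an upstream summit, members against lower-ranked peaks, was 3.00 (2.59 to 3.47; two-sided Fisher's exact test, adjusted p = 1.25e-55). Many peaks, however, were listed at the default width of 400 bp with the summit at the centre, namely 511 members (35.0%) and 4494 of the lower-ranked peaks (98.8%). Among these default-width peaks alone the shares were 79.1% (75.3 to 82.4) and 60.2% (58.8 to 61.7), with an odds ratio of 2.49 (1.99 to 3.10; Fisher's exact p = 7.54e-18). Among peaks with a width of their own only 55 were lower-ranked, 74.5% of them upstream against 83.7% of 951 members, and the odds ratio of 1.75 did not pass the threshold (exact test, adjusted p = 0.116). Both of these comparisons were added after the data were seen.

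**Figure D2:**
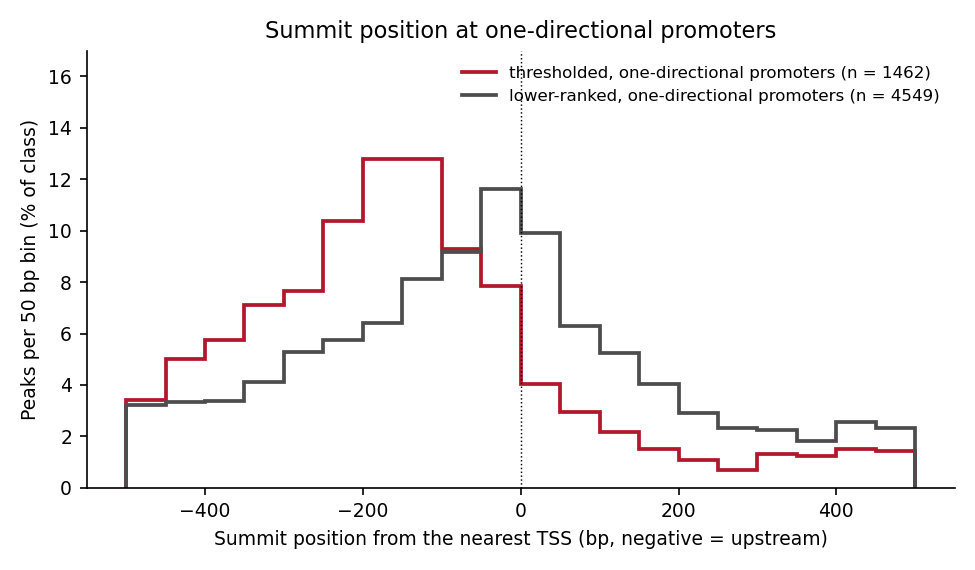
Share of peaks per 50 bp bin (y axis, percent of the class) against the summit's distance from the nearest TSS (x axis, bp, negative upstream) for the 1462 members and the 4549 lower-ranked peaks at one-directional promoters. Members were densest between 200 and 100 bp upstream, and lower-ranked peaks around the TSS itself.

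Stronger members had summits farther upstream in the list as deposited. From the strongest to the weakest quintile of the list, the median position of members was -191.5, -170.5, -136.5, -125 and -108 bp, and the upstream share 86.5%, 81.3%, 82.4%, 82.1% and 76.5%. Summits within 100 bp of the TSS made up 11.5% of the members in the strongest quintile and 37.5% in the weakest. Each replicate's own leading 6075 peaks gave the same order of medians, from -198 to -148 bp in replicate 2 and from -186 to -64.5 bp in replicate 3. Default-width peaks made up 0.255% of the strongest quintile of members and 88.8% of the weakest. With them left out, the medians by quintile were -191, -169.5, -172, -155 and -176 bp, so the order beyond the strongest quintile was not kept. The part of peak width in this trend was not tested further.

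**Figure D3:**
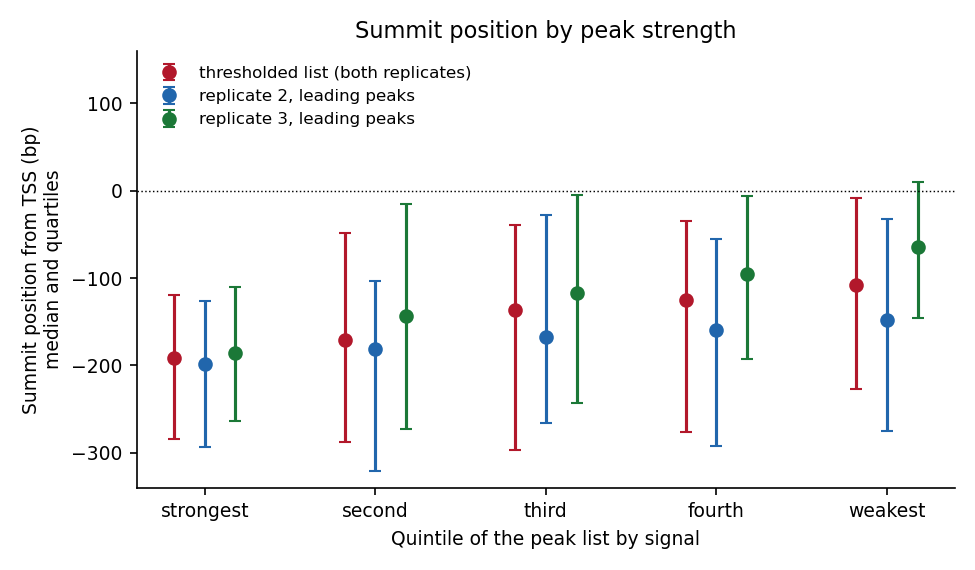
Median summit position from the nearest TSS (points, bp, negative upstream) with quartiles (bars) for one-directional promoter peaks in each quintile of a list by signal, in the thresholded list and in the leading 6075 peaks of each replicate. In all 3 lists the median moved toward the TSS from the strongest to the weakest quintile.

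Upstream members stood in the strongest quintile more often than downstream ones, 28.2% (25.8 to 30.9; 339 of 1200) against 20.3% (15.9 to 25.6; 53 of 261), with an odds ratio of 1.55 (1.11 to 2.13; two-sided Fisher's exact test, adjusted p = 0.0109). This call was not stable. With the leading peaks of replicate 3 alone the odds ratio was 2.35 (exact test, adjusted p = 1.24e-07), with those of replicate 2 alone it was 1.30 (adjusted p = 0.161), and without default-width peaks it was 1.41 (adjusted p = 0.116).

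Some strong members nevertheless had their summit inside the gene. The strongest downstream summit was that of clu, on 2R from 16187282 to 16188696, at 188 bp in the thresholded list, 190 bp in replicate 2 and 135 bp in replicate 3. PNPase followed at 83 bp and rank 30, mrt at 146 bp and rank 32, SamDC at 214 bp and rank 43, and woc, a zinc finger protein gene, at 412 bp and rank 46. The summits of clu and PNPase were in an exon of the gene and those of mrt, SamDC and woc in an intron. Over all 261 downstream summits, 169 (64.8%) were in an exon and 90 (34.5%) in an intron of the marked gene.

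Of the 1200 upstream summits, 673 (56.1%) lay outside annotated genes. Another 357 (29.8%) were in an intron of the marked gene itself, upstream of one of its inner TSSs, 47 were in its exons, 62 were in exons and 61 in introns of another gene. For 937 members the nearest TSS was the most upstream one of its gene. The next protein-coding gene upstream of that TSS ran in the same direction for 541 of them (57.7%, 54.5 to 60.9) and in the opposite direction for 319 (34.0%, 31.1 to 37.1). Over the most upstream TSS of all 10067 one-directional genes these shares were 52.2% and 31.5%. The same-direction neighbour ended a median of 534 bp from the TSS of these members and 550 bp from that of all one-directional genes. A TSS inside another gene was found for 8.0% (6.43 to 9.92) of these members and 16.2% of all one-directional genes. A noncoding TSS on the opposite strand stood within 500 bp of 86 members (5.88%, 4.79 to 7.21), compared with 3.96% of the lower-ranked peaks, so a few of these promoters are one-directional for protein-coding genes only.

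The members marked 1347 protein-coding genes. Of the 1462 peaks, 1416 had 1 gene in the window, 44 had 2 and 2 had 3 or more. The latter were a peak on 2R near CG42837, CG44242 and Lipt1, at rank 2203, and one on 3R near pug, CG14683 and CG46459, at rank 5621. The gene of the tagged protein was not marked by a member. The CG8388 promoter did carry a thresholded peak, at rank 5406 with its summit 131 bp upstream of the TSS, but TSSs on both strands were within 500 bp.

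Several genes carried more than 1 member, and whether these lay at separate TSSs was not counted. More than 1 member was found for 142 genes, of which 17 had 3 or more. Ptpmeg2, a protein tyrosine phosphatase gene on X, had 5 members at ranks 243, 317, 376, 2423 and 3763. Its 3 strongest summits stood at nearly the same distance from 3 separate TSSs, -186, -193 and -207 bp, as did the corresponding summits in replicate 2 (-179, -202 and -214 bp) and replicate 3 (-187, -193 and -205 bp). Rtnl1, a reticulon gene that shapes the endoplasmic reticulum, had 4 members, with summits at -288, -244, -232 and -345 bp. SNF4Agamma, a subunit of the energy sensor AMPK, also had 4. ph-p had 3, of which the strongest were at rank 23 (-477 bp) and rank 72 (433 bp). Its neighbour ph-d was marked at rank 1290 and -323 bp.

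One-directional genes, those whose TSSs all lacked an opposed protein-coding TSS within 500 bp, carried a thresholded summit less often than the 3878 opposed genes. A summit stood within 500 bp of a TSS in 1320 of 10067 one-directional genes (13.1%, 12.5 to 13.8) and in 1519 opposed genes (39.2%, 37.6 to 40.7), with an odds ratio of 0.234 (0.215 to 0.256; two-sided Fisher's exact test, adjusted p = 8.22e-236). A single peak between opposed genes counts for both, and the genes of a pair are not independent. A gene was opposed if any of its TSSs was, and carried a summit if any of them did. Genes with more TSSs could thus meet both more readily, and TSS number was not taken into account. Between window and list settings the odds ratio ranged from 0.231 to 0.346.

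Of the one-directional genes, 1196 were marked by a member, that is 11.9% of those tested, and this is the background for the gene groups below. Marked genes had more TSSs and were longer. Of genes with 1 TSS, 7.48% (6.91 to 8.10) were marked, of those with 2 TSSs 18.9% (17.1 to 20.8), with 3 TSSs 32.5% (28.4 to 36.9) and with 4 or more 49.7% (44.2 to 55.2). A gene counted as marked if a member lay within 500 bp of any of its TSSs, so genes with more TSSs had more windows. The part of this counting in the rise was not tested. The median length was 5196.5 bp for marked and 1966 bp for unmarked genes, and among genes with 1 TSS it was 2640 bp and 1672 bp. Genes with a single exon made up 6.35% of marked and 17.8% of unmarked genes.

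Genes of the cytosolic ribosome, which makes protein outside the mitochondria, had the highest share marked of the 17 lists examined. Of 52 one-directional ribosomal protein genes, 40 were marked (76.9%, 63.9 to 86.3). Their peaks were of middling strength, at ranks 794 to 5797 with a median of 2840. RpL24 was the strongest at rank 794 (ranks 1059 and 689 in replicates 2 and 3), followed by RpS7 at 836 (499 and 1971), RpL30 at 1065 (1999 and 598) and RpL23A at 1117 (1538 and 872). Their summits were close to the TSS. Of 43 peaks, 32 had the summit upstream and 40 were within 100 bp of the TSS, compared with 24.3% of all members, and the median position was -20 bp, with RpL24 at -8 bp, RpL30 at -27 bp, RpL23A at -57 bp and RpS7 at -69 bp. RpS23 was the exception among genes at -437 bp. Of these 43 peaks, 12 had the default width. Of the 34 opposed genes of the same list, 30 had a thresholded summit (88.2%), compared with 39.2% of all opposed genes. A high share was thus not particular to one-directional ribosomal protein genes.

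Other genes of translation were marked much less. Translation factors had 6 of 33 marked (18.2%, 8.61 to 34.4), led by eIF6, a 60S subunit factor, at rank 226, eEF1gamma at 631, eIF3c at 1741 and eEF2, the translocation factor, at 2368. Mitochondrial ribosomal proteins had 4 of 20 (20%, 8.07 to 41.6), namely mRpL41 at rank 25, mRpS5 at 827, mRpL4 at 3087 and mRpL19 at 3514. Aminoacyl-tRNA synthetases had 2 of 12, SerRS-m, whose peak was not listed in replicate 2, and AlaRS. These shares have intervals that hold the background.

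Genes of oxidative phosphorylation, which produce ATP in mitochondria, had 0 of 44 one-directional genes marked. This allows a share of up to 6.82% by a limit of 3 counts and up to 8.03% by the Wilson interval. Both are below the background of 11.9%, but the Wilson interval holds the 7.48% of genes with 1 TSS. TSS number was not taken into account. Of the 40 opposed genes of the same list 14 had a thresholded summit (35.0%), compared with 39.2% of all opposed genes. Cuticle proteins had 0 of 68 (up to 4.41%, Wilson 5.35%) and odorant and gustatory receptors 0 of 108 (up to 2.78%, Wilson 3.43%). The former build the exoskeleton and the latter serve the chemical senses.

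Notch pathway genes, which serve signalling between touching cells, had 7 of 17 marked (41.2%, 21.6 to 64.0), with 9 peaks that were all upstream. The strongest were E(spl)m7-HLH, a target repressor, at rank 288 (ranks 292 and 313 in replicates 2 and 3; -357 bp), and gro, the corepressor, at rank 293 (323 and 296; -126 bp). E(spl)m3-HLH stood at rank 344 (166 and 979; -364 bp) and fng, the glycosyltransferase that modifies Notch, at rank 363 (192 and 658; -257 bp). The first 3 and E(spl)mbeta-HLH, also marked, at rank 5633, lie together on 3R, between 26005905 and 26042667, so they are not independent. Heat shock and chaperone genes had 4 of 15 marked (26.7%, 10.9 to 52), Hsp27 at rank 179 and -156 bp, Hsp26 at 775 and -141 bp, Hsp70Ab at 1266 and -413 bp and Hsp60A at 5175 and -162 bp. The interval for this list holds the background of 11.9%. The peaks of Hsp27 and Hsp26 lie together on 3L, between 9377428 and 9384098, so they are not independent either. Hsp70Ab has near-identical copies, and how reads were split among them was not tested.

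The remaining lists lay near the background or rested on few genes. Polycomb and trithorax genes had 3 of 13 marked (ph-p, ph-d and kis), insulator and promoter-binding protein genes 2 of 7 (Trl, the GAGA factor, at 165 bp and rank 1505, and BEAF-32 at -72 bp and rank 2579), and cell cycle genes 4 of 22, led by CycE at rank 567 with E2f1, fzr and dap. The general transcription machinery had 4 of 23 (Taf4, MED4, Polr2F and MED21, the last not listed in replicate 3). The proteasome had 2 of 11 (Rpn11 and Rpn10) and actins and tubulins 3 of 15 (Act87E, Act5C and alphaTub84B). Hox genes had 1 of 8, Dfd, whose peak was not listed in replicate 3. The list of gap and pair-rule genes, which pattern the early embryo, had 2 of 22, bcd at rank 3738 and cad at rank 5955. Both are maternally supplied and not gap or pair-rule genes in the strict sense, and no other gene of that list was marked.

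**Figure D4:**
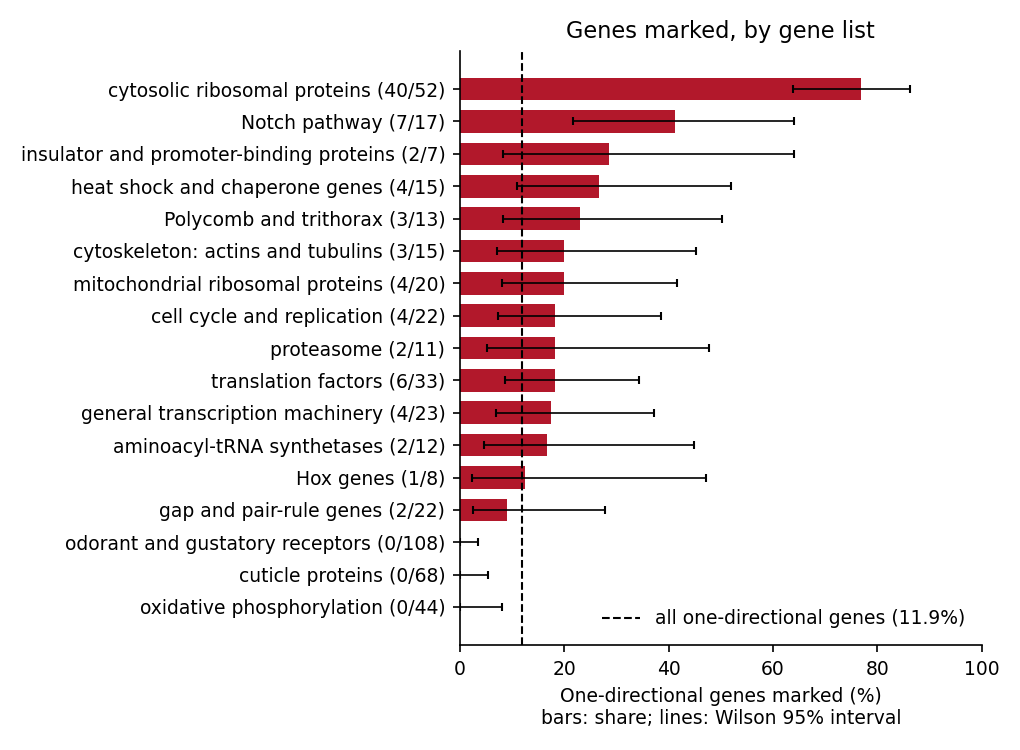
Share of the one-directional genes of each list that were marked by a member (bars, percent) with Wilson 95% intervals (lines), the counts in brackets, and the 11.9% of all one-directional genes as a dashed line. Cytosolic ribosomal proteins reached 76.9%, and 3 lists were at 0.

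The DNA under the summits was rich in A and T. In the 101 bp around each summit the GC content of members was 33.2% ± 10.3 (SD over 1462 peaks), falling to 29.9% ± 8.9 in the strongest quintile and rising to 37.3% ± 11.3 in the weakest. Lower-ranked peaks had 41.7% ± 10.6, and windows centred at -157 bp from the TSS of all one-directional genes 36.9% ± 11.0. Mixed-strand peaks had 29.3% ± 9.0 and peaks away from promoters 31.5% ± 8.9, so a low GC content was not particular to members. The dip was narrow. In 50 bp bins GC content fell from 40.0% at 500 bp upstream of the summit to 32.1% just upstream of it, and reached 46.3% at 250 to 300 bp downstream.

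Known promoter motifs were searched on both strands within 50 bp of the summit. For all one-directional promoters the windows were again centred at -157 bp from the TSS, so they leave out the TSS itself. DRE (TATCGATA) was in 1.92% of members, 2.68% of lower-ranked peaks, 2.67% of mixed-strand peaks and 0.765% of all one-directional promoters. In the bin from 50 bp upstream up to the TSS, outside that narrow window, there were 3.08 DRE matches per 100 one-directional genes and 4.17 per 100 members. Within 150 bp it was in 5.81% of members, 5.80% of lower-ranked peaks, 15.8% of mixed-strand peaks and 5.38% of all one-directional promoters, so members stood near the background there. Motif 1 (GGTCACACT) gave 3.08%, 3.72%, 9.02% and 1.75% in the same order. GAGAGAG, the letters of the GAGA factor, gave 11.6%, 11.9%, 2.41% and 7.03% within 150 bp in that order, so members stood near the lower-ranked peaks. Within 50 bp it gave 1.85%, 3.87%, 0.127% and 2.70%. The A/T word ATTTAAAA was in 8.0% of members within 50 bp (10.5% in the strongest quintile, 5.26% in the weakest) and in 5.70% of all one-directional promoters. The TATA letters TATAAA were in 24.6% and 18.9%, in sequence whose A and T content differs likewise. Mixed-strand peaks had ATTTAAAA in 8.51% and TATAAA in 31.1%, and peaks away from promoters in 6.30% and 25.4%.

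A separate search for recurrent 8-letter words within 150 bp of the members on 2L, 3L and X, set against windows centred 600 bp to either side, gave a family around CACTGT. Of the 10 leading words, 4 contain it (ACCACTGT, CACTGTGC, TCACTGTG and CCCACTGT), and none of the 15 motifs searched contains it whole. Others of the 10, AAGGGTAT, AGGGTATA and AATACCCT, share GGGTAT or its reverse complement instead. On the arms left out of the search AAGGGTAT was in 2.59% of members and 1.54% of flanking windows. The last letters of motif 1 (CACT) and of the initiator (CAGT) are shared with the word or its reverse complement. On the arms left out of the search, CACTGTGC was in 6.0% of members and 1.22% of flanking windows, and in 8.99% and 2.25% on the arms searched. CCCACTGT was in 4.38% of members and 1.05% of flanks on the left-out arms. TCAGTGTA, which holds the initiator letters TCAGT, was in 2.59% and 0.567%, and CAACACTG in 4.54% and 1.13%. Over all arms CAACACTG was in 4.65% of members and 8.64% of mixed-strand peaks.

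The word CACTGT itself was in 440 of 1462 members within 150 bp (30.1%, 27.8 to 32.5), compared with 17% (16 to 18.2) of lower-ranked peaks and 11.9% (11.3 to 12.6) of all one-directional promoters. The 1462 members include the 845 on the arms searched, of which 31.4% had it. The share of all members and those by quintile are therefore not independent of the search. Since the word was drawn from a search against flanks, flanks are compared on the arms left out of it, where 175 of 617 members (28.4%, 24.9 to 32.0) and 11.2% (9.54 to 13.1) of flanking windows had it. Peaks away from promoters had it in 31.3% (29.9 to 32.8) and mixed-strand peaks in 23.9% (21 to 27), so it was not particular to one-directional promoters. By quintile of strength the share in members was 32.9%, 27.9%, 34.0%, 30.4% and 24.6%. In 50 bp bins from 150 bp upstream to 150 bp downstream of the summit, all members had 6.09, 6.22, 5.88, 5.34, 7.66 and 5.88 matches per 100 peaks. The 951 members with a width of their own had 6.31, 7.78, 5.99, 4.73, 9.15 and 5.99 in the same bins, and 1.5 to 3.3 beyond 300 bp upstream. The bin with the most matches was that from 50 to 100 bp downstream in both sets. A match is a description of letters and not a bound site.

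**Figure D5:**
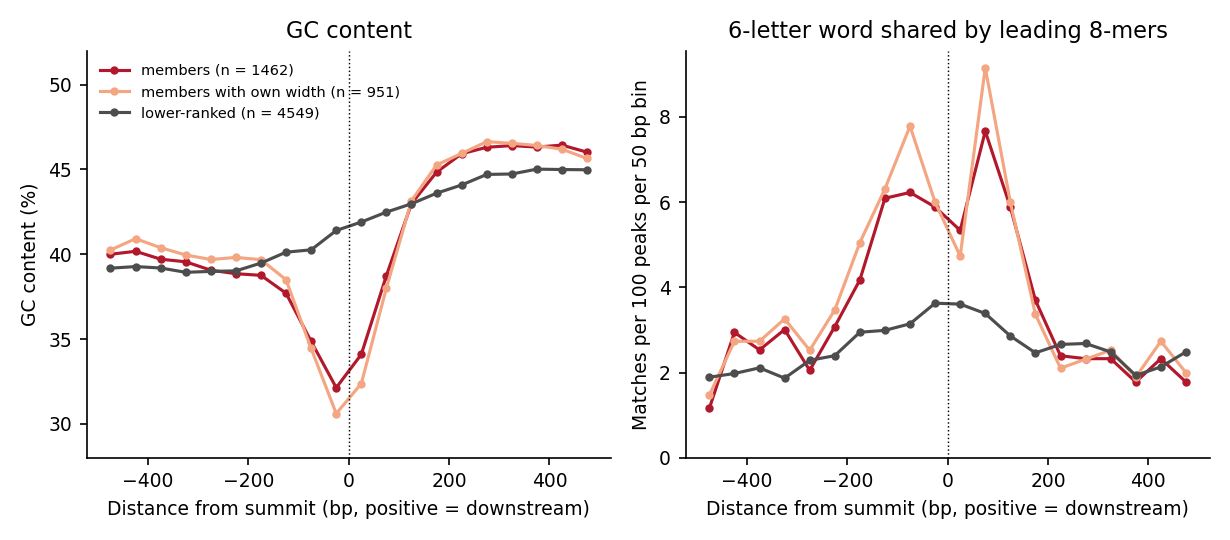
GC content (left, percent) and matches to the word CACTGT on either strand (right, per 100 peaks) in 50 bp bins around the summit, oriented by the gene, for all 1462 members, for the 951 with a width of their own and for the 4549 lower-ranked peaks. Members had a GC minimum of 32.1% just upstream of the summit and between 5.34 and 7.66 word matches within 150 bp of it, while lower-ranked peaks had no such GC minimum.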

How the data were processed

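The data are 4 peak lists on dm6, with 1 list per replicate, 1 for pooled replicates and 1 that passed the authors' reproducibility threshold, per the file headers and notes, which also name a control alignment. For the aligner, the peak caller and the threshold no source used here gives a name or value. The deposited signal is a score of the authors with no stated scale and served for ranks inside each list. The −log10 q-value, also deposited, was left aside. Summits are the list start plus the deposited offset, and coordinates are 1-based.

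TSSs came from Ensembl release 115 and sequence from RefSeq (Release 6), and 99.99% of 17682 genes that share a symbol have the same coordinates in both. Replicate values are those of the strongest peak overlapping a member by at least 1 bp. Lower-ranked peaks are pooled peaks outside the thresholded list. The 5 comparisons used two-sided Fisher's exact tests with Benjamini-Hochberg adjustment at 0.05 (scipy 1.17.1), which treat peaks and genes as independent. The test was checked on simulated data with independent counts, which cannot address dependence between neighbouring peaks or paired genes. Gene lists were matched by symbol or synonym, and unmatched symbols are not analysed here. A further gene group is not reported here.

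Named were the leading 20 members, the strongest 5 downstream, 3 of lowest signal, the strongest on each arm and those near 3 or more genes, up to 4 per gene list, and CG8388. Genes with most members, scny, further ribosomal genes and the 8-letter words (the 10 of highest ratio among those in at least 20 members, with a pseudocount of 5) were chosen after their values were seen. Members and lists were chosen with earlier results of these data known.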

Additional observations from a re-analysis of the deposited data

How the results depend on the processing

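The 5 tests and 3 descriptive values were recomputed with promoter windows of 250 and 1000 bp, RefSeq gene models, peak midpoints, the strongest 3037 peaks and either replicate alone, and, chosen after seeing the data, without default-width peaks. The odds ratio of the strongest quintile against mixed-strand peaks turned to 0.819 at 250 bp, rose to 1.40 among the strongest 3037 peaks and ran from 0.991 to 1.10 with either replicate alone. Upstream against downstream members lost significance among the strongest 3037 peaks (1.25) and without default-width peaks (1.41), and ran from 1.30 to 2.35 with either replicate alone. The upstream odds ratio against lower-ranked peaks fell to 1.75, past the threshold no longer, without default-width peaks. The tests of members against peaks away from promoters and of one-directional against opposed genes kept their direction and call in every setting run. The upstream share of members was 74.2% at 1000 bp, 84.4% among the strongest 3037 peaks, 79.1% for default-width peaks only and 77.8% to 83.6% with either replicate alone. The count of members was 794 among the strongest 3037 peaks and 951 without default-width peaks. The share in both replicates was 98.2% among the strongest 3037 peaks, 92.5% without default-width peaks, 96.9% with all listed peaks and 55.1% with a reciprocal overlap of 50%. Apart from fewer peaks in the list, the causes were not tested. No paired analysis was possible because the libraries form a single group. Depth is unknown, so intervals cover counting error only, and the 2 replicates share a transgenic line.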
